A study of Mus musculus with 36 samples.

Results

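The 9 genes reported here act in the formation of programmed meiotic DNA double-strand breaks and were followed through fetal mouse germ cells: Prdm9, Zcwpw1, Zcwpw2, Spo11, Mei1, Mei4, Rec114, Iho1 and Ankrd31. They were chosen by symbol, with earlier results of these data known. All 9 were found among 56893 genes in the tables of germ cells and 55492 genes in the tables of gonads (Iho1 was listed there as Ccdc36). The series holds 36 RNA-seq libraries in 12 groups of 3. In the intrauterine hyperglycemia (IUHG) groups the mothers received streptozotocin (STZ), a toxin of pancreatic beta cells, on day 3.5 of pregnancy, at 120 mg/kg, and had more than 14 mM glucose at E6.5, and what the control mothers received in place of STZ is not given in the sources used here. Primordial germ cells (PGCs) were sorted by an Oct4-EGFP reporter, which marks germ cells, from pooled fetuses at E12.5 (control and IUHG, sexes not separated), from female (F) and male (M) fetuses at E13.5, and from female and male fetuses at E16.5, each control and IUHG. Whole gonads, which hold somatic cells beside germ cells, came from E13.5F control and IUHG fetuses of the ICR strain. All samples are labelled wild type, apart from the reporter that the sorted cells carry, and each is a pool of animals.

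Meiotic recombination starts when the cell cuts its own DNA. PRDM9, a histone methyltransferase with a zinc finger array, marks the places where breaks may form, and ZCWPW1 and its relative ZCWPW2 read the histone marks it leaves. SPO11, with its partner TOPOVIBL (Top6bl), makes the cut, and MEI1, MEI4, REC114 and IHO1 are needed for it. MEI4, REC114, IHO1 and ANKRD31 assemble on the chromosome axis. Female mouse germ cells enter meiosis before birth, from about the middle stage sampled here, and male germ cells only after birth.

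Promoter windows from RefSeq (GRCm38.p6, 250 bases before to 50 after a gene's start) were found for 8 of the 9 genes. They were searched on both strands for CNCCTCAG, the letters bound by STRA8 and MEIOSIN, for CACGTG, the E-box, and for GCGGGAA, an E2F motif. Of all 32851 windows, 7.94% held CNCCTCAG, 7.15% CACGTG and 4.60% GCGGGAA. CNCCTCAG was found for 1 member, Prdm9, and CACGTG for 1 member, Rec114. The stretch before the Prdm9 start is shown because it holds the STRA8-MEIOSIN letters (capitals, bases -41 to -34 from the start), which share 1 base with an E2F motif on the other strand at bases -47 to -41. A second CNCCTCAG lay downstream, at bases 15 to 22. It is the minus strand of chr17:15564355-15564474, and the start is also the gene's end in the gonad tables.

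Prdm9: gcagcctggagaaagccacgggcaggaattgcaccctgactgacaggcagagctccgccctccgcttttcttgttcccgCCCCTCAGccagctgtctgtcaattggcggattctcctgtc

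For Rec114, the 30 bases before the RefSeq start are shown for their E-box (capitals, bases -19 to -14), on the minus strand of chr9:58741560-58741589. This start lies inside the longer Rec114 gene of the deposited tables. An E2F motif stood at bases 27 to 33.

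Rec114: tcgtcagctatCACGTGgaggcgggctttc

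The other matched members held none of these letters in these windows.

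In the PGC tables (mm39), Prdm9 lies on chr17:15763341-15784602, Zcwpw1 on chr5:137786060-137820883, Zcwpw2 on chr9:117705068-117843417, Spo11 on chr2:172821635-172835369, Mei1 on chr15:81954197-82011015, Mei4 on chr9:81745723-82088060, Rec114 on chr9:58560139-58648842, Iho1 on chr9:108280810-108305683 and Ankrd31 on chr13:96884780-97046547. Rec114 overlaps Nptn, and Iho1 overlaps 1700102P08Rik, each on the opposite strand. Whether the libraries kept strand is not given in the sources used here, so reads of such pairs cannot be told apart. Values are TPM, shares of all transcripts that are scaled for gene length, so that levels may be compared between genes. Aligned bases in genes, derived from coverage and FPKM, ran from 3.25 to 8.32 gigabases per PGC library and from 3.89 to 4.95 per gonad library. Counts were not given, so the counting error of single values is unknown. Transcripts of 4 Y-linked genes, summed, were at most 0.601 TPM in female PGCs and at least 78.1 TPM in male PGCs. Of the gonad libraries, control replicate 1, held 51.3 TPM of Y-linked transcripts and 178 TPM of Amh, a Sertoli cell hormone, against 0 TPM and at most 1.48 TPM in the other 5, so gonad results are also given without it. Differences are on the log2(TPM + 1) scale, tested with limma across all genes whose mean reached 1 TPM in a compared group, with Benjamini-Hochberg adjustment. This scale understates changes of genes with low TPM. A gene was called in PGCs at an adjusted p below 0.01 with more than a 2-fold change, and in gonads at an adjusted p below 0.05 with at least a 2-fold change. The 3 samples of a group are labelled biological replicates, but whether their pools came from separate litters is not stated, so the p-values measure only the spread between these pools.

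In control PGCs, all 9 genes were called higher in E13.5F than in E13.5M cells, against 20.4% of all genes tested. By E16.5 the female cells had gone on to raise 5 of the 9 (18.4% of all genes) and lower 1 (9.79%). Zcwpw1 and Rec114 already stood high in E12.5 cells, before the sexes were separated, whereas Prdm9, Mei1, Iho1, Zcwpw2 and Ankrd31 were below 3 TPM in every control library there. Spo11, which makes the cut, had the largest rise of the 9 from E13.5F to E16.5F. Mei4 went the other way. In pools of cells, fewer cells of a type and less RNA per cell cannot be told apart.

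**Figure D1:**
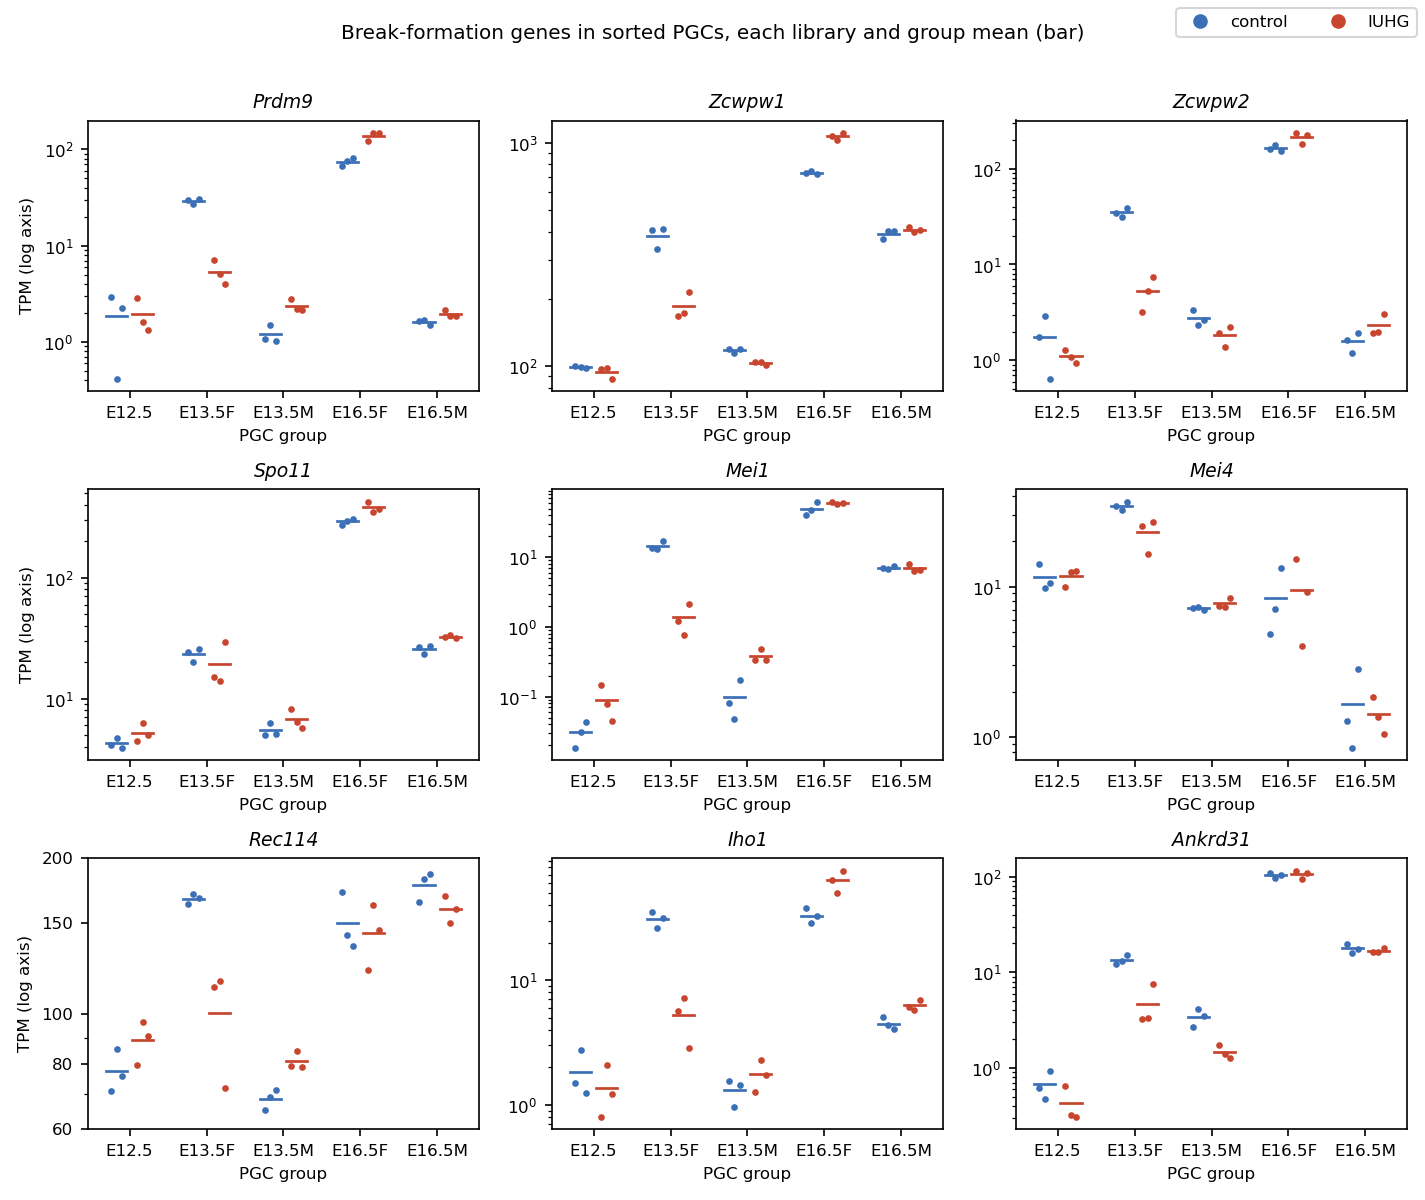
TPM (log axis) of the 9 genes in the 10 PGC groups, with 1 point per library (3 per group) and a bar at the group mean, control in blue and IUHG in red. In E13.5F, the IUHG libraries of 8 genes lie below every control library, against 13.2% of all genes tested. In E16.5F the IUHG libraries of 5 genes lie above every control library, against 14.9% of all genes tested.

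Prdm9 stood at 2.96, 0.416 and 2.24 TPM in E12.5 control pools, at 29.7, 27.3 and 30.1 TPM in E13.5F, at 1.08, 1.5 and 1.02 TPM in E13.5M, at 67.5, 75.1 and 80.5 TPM in E16.5F and at 1.64, 1.67 and 1.51 TPM in E16.5M control libraries. Its female libraries were far above all others at both stages, and E16.5F lay above E13.5F without overlap. The E13.5F minus E13.5M difference was 3.78 ± 0.153 (SE; adjusted p = 1.7e-07, limma), 13.7-fold on the TPM + 1 scale. Between the female stages it rose by 1.32 ± 0.134 (adjusted p = 3.2e-05, limma). Between the male stages the difference was 0.25 ± 0.149 and did not pass the test (adjusted p = 0.15, limma).

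The reader Zcwpw1 had the highest TPM of the 9 in every PGC group. It measured 100.2, 99.6 and 98.3 TPM at E12.5, 407, 335 and 411 TPM in E13.5F, 119, 114 and 120.0 TPM in E13.5M, 735, 746 and 725 TPM in E16.5F, and 371, 404 and 402 TPM in E16.5M. Unlike Prdm9, it was called between the male stages, by 1.73 ± 0.0548 (adjusted p = 3.6e-08, limma), and E16.5M libraries overlapped E13.5F libraries. Its rise between the female stages, 0.94 ± 0.0943, had an adjusted p of 3.1e-05 (limma) and stayed just under the 2-fold threshold. Zcwpw2 stood at 34.6, 31.5 and 39.1 TPM in E13.5F and at 161, 175 and 154 TPM in E16.5F, against 1.65, 1.19 and 1.91 TPM in E16.5M. Its E16.5F minus E16.5M difference of 6.00 ± 0.148 was the largest of the 36 control differences of the 9 genes (adjusted p = 1.2e-07, limma).

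Spo11 measured 24.1, 20.1 and 25.7 TPM in E13.5F and 273, 294 and 309 TPM in E16.5F control cells. These groups do not come near each other, and the rise was 3.60 ± 0.129, or 12.1-fold (adjusted p = 8.2e-08, limma). In males it went from 4.95, 6.32 and 5.12 TPM to 26.5, 23.5 and 27.1 TPM, so that E16.5M cells overlapped E13.5F cells.

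Ankrd31, a partner of REC114, followed a like course. Its control levels were 12.3, 13.0 and 15.0 TPM in E13.5F, 109, 97.3 and 105 TPM in E16.5F, 2.68, 4.10 and 3.47 TPM in E13.5M and 19.9, 16.1 and 17.4 TPM in E16.5M. The female stages differed by 2.86 ± 0.141 (adjusted p = 5.1e-07, limma) and the male stages by 2.1 ± 0.148 (adjusted p = 2.7e-06, limma). Mei1 ran from at most 0.0438 TPM at E12.5 to 13.4, 13.2 and 17.2 TPM in E13.5F and 41.1, 47.4 and 61.3 TPM in E16.5F, with 7.14, 6.70 and 7.41 TPM in E16.5M.

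Mei4, Rec114 and Iho1 code for axis proteins that work together, yet their levels moved apart between stages. Mei4 peaked in E13.5F, at 34.2, 32.2 and 36.5 TPM, and stood at 4.83, 7.04 and 13.3 TPM in E16.5F. The libraries did not overlap, and the difference was -2.01 ± 0.294 (adjusted p = 0.00033, limma). In males it fell as well, from 7.17, 7.27 and 7.00 TPM to 1.28, 0.848 and 2.81 TPM. Rec114 stood at 164, 171 and 168 TPM in E13.5F, at 173, 143 and 136 TPM in E16.5F and at 165, 183 and 186 TPM in E16.5M, which overlap, and only E13.5M, at 65.4, 69.2 and 71.5 TPM, and E12.5, at 71.2, 85.6 and 75.8 TPM, lay lower. Iho1 had already reached its E16.5F level (37.6, 28.6 and 32.4 TPM) in E13.5F, at 34.8, 26.3 and 31.4 TPM. That difference of 0.09 had a 95% interval from -0.29 to 0.47, and with FPKM or median-of-ratios scaling it turned to -0.05 or -0.17. The antisense neighbour 1700102P08Rik was at most 6.90 TPM in female PGCs but 60.8, 58.7 and 56.6 TPM in E16.5M controls, where Iho1 stood at 5.02, 4.40 and 4.04 TPM.

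By the rule above, E13.5F exceeded E13.5M for 9 of 9 genes, where 20.4% of all genes tested were called higher, with a median member difference of 2.11 against 0.28 over all genes. E16.5F exceeded E16.5M for 7 of 9 (22.9% of all genes), the others being Zcwpw1, at 0.91 with an adjusted p of 4.5e-06 (limma), and Rec114. From E13.5F to E16.5F 5 members rose (18.4% of all genes) and 1 fell (9.79%), with a member median of 1.32 against 0.31. From E13.5M to E16.5M 6 rose (38.3%) and 1 fell (12.7%), with a median of 1.36 against 0.62. Median-of-ratios scaling moved those medians of all genes to 0.00, 0.09 and 0.33, and the share of higher among called genes from 68.6% to 49.1% (E13.5F and E13.5M), from 65.2% to 51.2% (female stages) and from 75.1% to 62.8% (male stages). Under it Rec114 slipped below 2-fold between the E13.5 sexes (0.94), as did Rec114 (0.98) and Iho1 (0.98) between male stages. The Mei4 call between the E16.5 sexes was lost on leaving out E16.5F replicate 2 (adjusted p = 0.011, limma) or 3, or E16.5M replicate 1 or 2 (up to adjusted p = 0.027, limma), and with no filter (adjusted p = 0.016, limma).

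**Figure D2:**
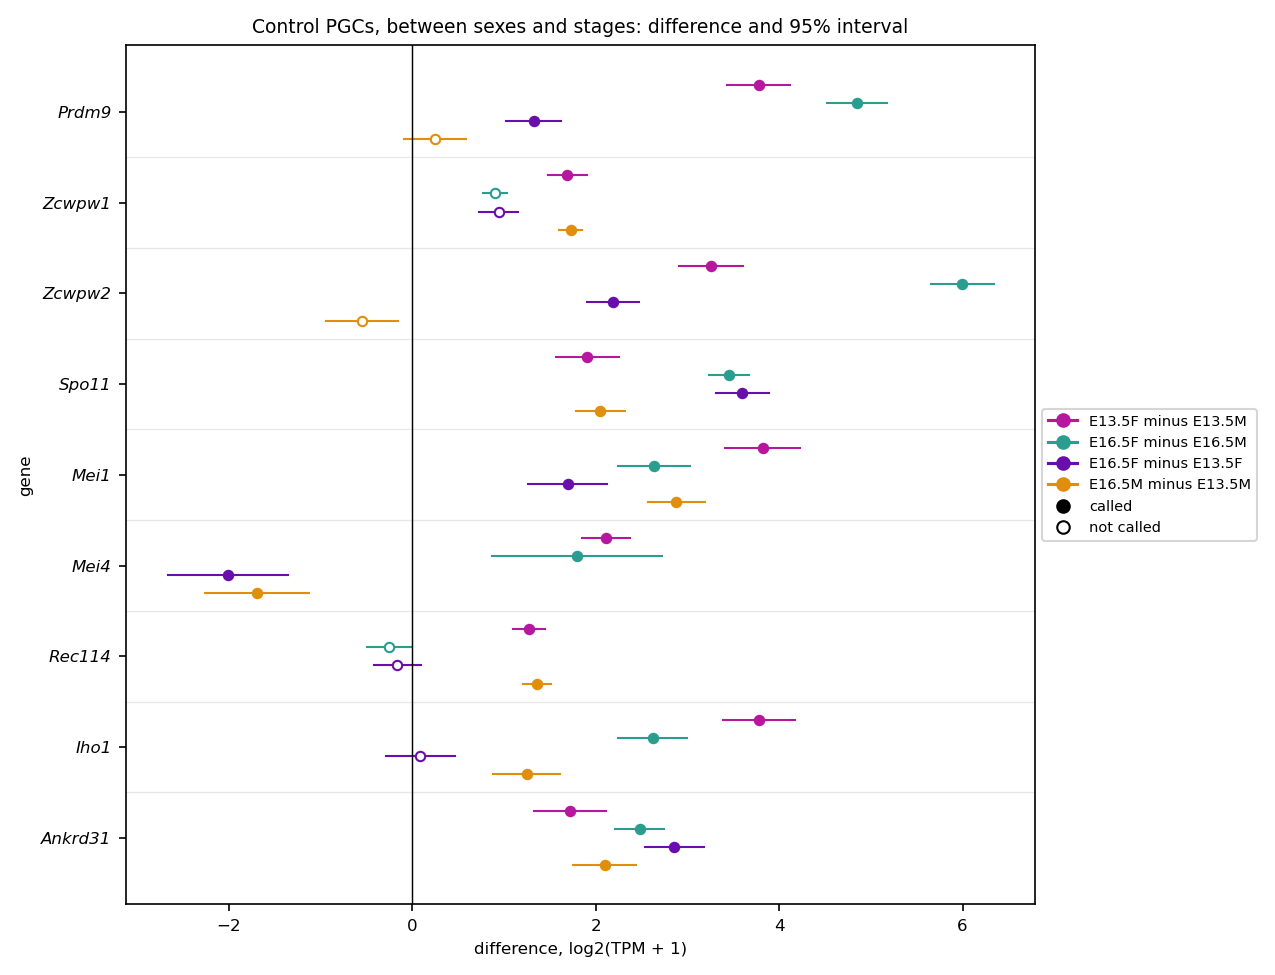
Differences on the log2(TPM + 1) scale between control PGC groups of 3 libraries, with 95% intervals, for each of the 9 genes. Filled points were called, and Mei4 is the gene below 0 between both pairs of stages.

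Genes of the same pathway that are not members were higher in E13.5F than in E13.5M for 4 of 8 further break-formation genes (Hormad1, an axis protein that recruits IHO1, by 2.98, and Top6bl by 1.75) and lower for 1, Cxxc1. They were higher for 9 of 14 genes of break processing and strand exchange and for 5 of 5 genes of meiotic entry. Stra8 and Meiosin, whose products act together as the transcription activator of meiotic entry, differed by 7.25 and 5.63.

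In E13.5F PGCs 4 of the 9 genes were called lower under IUHG, against 0.436% of all genes. These calls needed every control library, with 0 members called when any of them was left out. Calls over all genes fell as well. Leaving out control replicate 1, 2 or 3 left 7, 1 or 9 of all genes called lower, against 72 with every library. Prdm9, Zcwpw2, Mei1 and Iho1 fell 4.80- to 6.71-fold on the TPM + 1 scale, to group means between 1.38 and 5.38 TPM. Ankrd31, Zcwpw1, Rec114 and Mei4 were lower by less and were not called, and the libraries of Spo11 overlapped.

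Prdm9 went from 29.7, 27.3 and 30.1 TPM in E13.5F control cells to 7.05, 5.09 and 4.00 TPM in IUHG cells. Its groups were far apart, and the difference was -2.26 ± 0.263 (adjusted p = 0.0037, limma), 4.80-fold lower. Zcwpw2 went from 34.6, 31.5 and 39.1 TPM to 3.21, 5.33 and 7.41 TPM. It fell by 2.56 ± 0.297, 5.91-fold (adjusted p = 0.0037, limma). Mei1 had the largest change of the 9, from 13.4, 13.2 and 17.2 TPM to 1.22, 0.772 and 2.15 TPM. The difference was -2.75 ± 0.321, 6.71-fold lower (adjusted p = 0.0037, limma). Iho1, the axis protein through which HORMAD1 recruits the break machinery, went from 34.8, 26.3 and 31.4 TPM to 5.65, 7.18 and 2.87 TPM. It fell by 2.41 ± 0.317, 5.32-fold (adjusted p = 0.0066, limma), while the antisense 1700102P08Rik stayed at or below 1.72 TPM in both groups.

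Zcwpw1 went from 407, 335 and 411 TPM to 167, 174 and 216 TPM, groups that do not overlap. At -1.05 ± 0.177 it was past the fold threshold but not the p threshold (adjusted p = 0.018, limma). Ankrd31 went from 12.3, 13.0 and 15.0 TPM to 3.23, 3.35 and 7.55 TPM, with IUHG replicate 3 well above the other 2 (-1.42 ± 0.334, adjusted p = 0.056, limma). Rec114 stood at 113, 116 and 72.0 TPM in IUHG cells, all below its controls, and replicate 3 was lowest (-0.76 ± 0.213, adjusted p = 0.087, limma). Its opposite-strand neighbour Nptn lay the other way, at 31.7, 34.7 and 39.6 TPM in control and 55.9, 45.9 and 74.8 TPM in IUHG cells. Mei4 stood at 25.3, 16.52 and 26.9 TPM (-0.59 ± 0.241, adjusted p = 0.18, limma). Spo11 measured 15.2, 13.9 and 29.3 TPM in IUHG against 24.1, 20.1 and 25.7 TPM in control cells, so that replicate 3 exceeded every control, and its interval ran from -0.99 to 0.36.

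Of the 9 members, 4 were called lower and none higher, against 0.436% of all genes called lower, and 8 had every IUHG library below every control library, against 13.2% of all genes. Their median difference was -1.42 against 0.14 over all genes, or -1.56 relative to it. The study had put Prdm9, Zcwpw1, Mei1, Iho1 and Ankrd31 in its own list of meiosis genes from these samples. It also named Zcwpw2, with Prdm9 and Zcwpw1, among the epigenetic regulators that changed in them. All 9 members were chosen with earlier results of these data known, so neither their direction nor these counts are independent evidence. At an unadjusted p below 0.01 with more than 2-fold change, 6 members were lower, Zcwpw1 and Ankrd31 joining, against 2.88% of all genes. Without control replicate 1, 2 or 3 or without IUHG replicate 2, 0 members were called, without IUHG replicate 1 it was 2 and without IUHG replicate 3 it was 6, with differences of the 4 called genes between -2.97 and -2.1 and adjusted p between 0.00015 and 0.074 (limma). With no filter on low values 0 members and 1 gene in all passed.

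**Figure D3:**
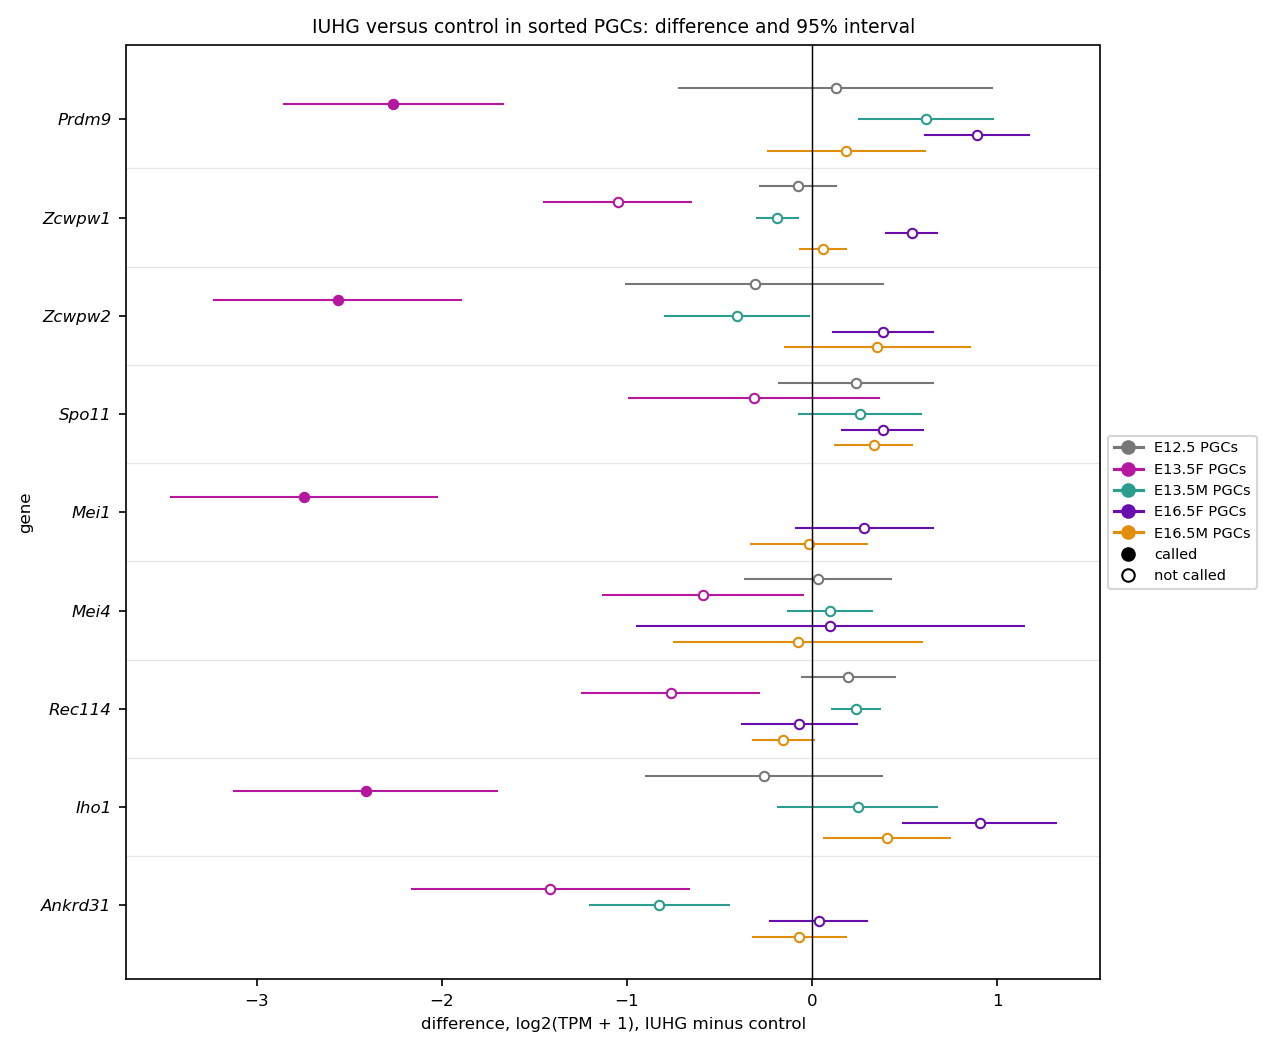
IUHG minus control difference on the log2(TPM + 1) scale in the 5 PGC comparisons, each of 3 libraries against 3, with 95% intervals, for each of the 9 genes; filled points were called. The 4 called values are the E13.5F values of Prdm9, Zcwpw2, Mei1 and Iho1, while the E16.5F values of Prdm9, Zcwpw1 and Iho1 lie above 0 with their whole interval.

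The summed germ cell markers (Ddx4, Dazl, Mael, Pou5f1, Dppa3 and Kit, 6 of 6 listed) were 5011 to 5274 TPM in E13.5F control and 5508 to 6420 TPM in IUHG cells. Of these 6, Mael, which acts in transposon silencing in germ cells, fell as well, from 538, 491 and 540 TPM to 259, 252 and 239 TPM (-1.06 ± 0.149, adjusted p = 0.0092, limma). Summed pregranulosa markers ranged from 16.0 to 20.1 and from 11.2 to 18.9 TPM, and interstitial markers from 4.24 to 4.58 and from 4.71 to 11.0 TPM. Amh was at 0 in all 6 libraries. Endothelial markers were 50.8 to 69.5 TPM in control and 89.0 to 209 TPM in IUHG cells, nearly all of it Pecam1, a gene that PGCs also express, with Cdh5 and Kdr at or below 0.65 TPM. The part of these in the result was not tested.

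Of the other genes of the pathway, 0 of 8 further break-formation genes were called in E13.5F by limma, with 4 at an unadjusted p below 0.05. In this comparison 3871 of all 16519 genes tested had such a p. Top6bl stood at 8.09, 7.27 and 7.80 TPM in control and 2.56, 1.34 and 3.80 TPM in IUHG cells, which do not overlap (-1.35 ± 0.338, adjusted p = 0.066, limma). Hormad1 stood at 885, 896 and 886 TPM and at 428, 381 and 554 TPM (-0.99 ± 0.174, adjusted p = 0.022, limma). Among 14 genes of break processing and strand exchange 2 fell, Meiob by 1.87 and Spata22 by 3.53, which code for partner proteins that bind single-stranded DNA. Spata22 was at 0 TPM in 2 of the 3 IUHG libraries and at 0.895 TPM in the other. Of 5 genes of meiotic entry, 3 fell: Stra8, from 1936, 1719 and 1841 TPM to 466, 491 and 326 TPM, Meiosin, from 204, 168 and 217 TPM to 18.1, 26.1 and 36.5 TPM, and Sycp3, a chromosome axis gene, by 2.1. The study chose Stra8 and Sycp3 as markers from these samples too.

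At E16.5 the female comparison lay on the other side. Prdm9, Zcwpw1, Zcwpw2, Spo11 and Iho1 stood higher in every IUHG library than in every control library, 5 of 9 members against 14.9% of all genes. None reached a 2-fold change, so 0 of 9 were called by limma (0.742% of all genes were called in either direction), with 5 at an unadjusted p below 0.05. Such an unadjusted p was found for 4272 of all 18734 genes tested. By adjusted p alone, a rule chosen after seeing the data, Prdm9 and Zcwpw1 were higher, 2 of 9 against 0.448% of all genes.

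Prdm9 measured 67.5, 75.1 and 80.5 TPM in E16.5F control and 122, 148 and 146 TPM in IUHG cells. The difference was 0.89 ± 0.125, 1.85-fold (adjusted p = 0.0058, limma). Zcwpw1 stood at 735, 746 and 725 TPM and at 1071, 1026 and 1107 TPM, tight groups that differed by 0.54 ± 0.0619 (adjusted p = 0.0027, limma). Without single libraries the adjusted p (limma) of Prdm9 ran from 0.0077 to 0.055 and that of Zcwpw1 from 0.0041 to 0.034. Iho1 stood at 37.6, 28.6 and 32.4 TPM against 63.6, 50.0 and 75.1 TPM, a difference of 0.91 ± 0.184 that missed the threshold (adjusted p = 0.026, limma). Its antisense neighbour 1700102P08Rik lay lower in IUHG cells, at most 0.666 TPM against at least 2.96 TPM.

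Spo11 stood at 273, 294 and 309 TPM in control and 425, 349 and 372 TPM in IUHG cells (0.38 ± 0.0972, adjusted p = 0.053, limma), and Zcwpw2 at 161, 175 and 154 TPM and 236, 182 and 224 TPM (0.38 ± 0.119, adjusted p = 0.095, limma). The remaining members overlapped. Mei1 measured 41.1, 47.4 and 61.3 TPM against 62.6, 58.2 and 59.5 TPM, Ankrd31 109, 97.3 and 105 TPM against 115, 95.3 and 109 TPM, Rec114 173, 143 and 136 TPM against 122, 162 and 146 TPM, and Mei4 4.83, 7.04 and 13.3 TPM against 15.1, 4.04 and 9.15 TPM. The interval of Ankrd31 ran only from -0.23 to 0.30, whereas that of Mei4 ran from -0.95 to 1.14.

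Top6bl, the partner of SPO11, rose at E16.5F from 41.8, 38.6 and 46.1 TPM to 117, 78.4 and 99.96 TPM, by 1.19 ± 0.166 (adjusted p = 0.0055, limma), and was the 1 called of 8 further break-formation genes. Of 14 genes of break processing and of 5 of meiotic entry 0 were called by limma, with 7 and 2 at an unadjusted p below 0.05. Meiosin stood at 220, 232 and 253 TPM against 448, 419 and 419 TPM (0.87 ± 0.086, adjusted p = 0.0014, limma), under 2-fold. Stra8 overlapped, and Hormad1 was 0.25 higher (adjusted p = 0.087, limma).

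Interstitial markers also differed between these groups, at 11.7 to 25.6 TPM summed in control and 36.7 to 48.0 TPM in IUHG cells, mainly Col1a1, with Cyp17a1 at 0 in every IUHG library. Blood markers were 166 TPM in IUHG replicate 3 and at most 24.9 TPM in the other 5, and germ cell markers 3009 to 3310 and 2621 to 2987 TPM. Of the 6 germ cell markers 2 were called lower, Dppa3 (-4.72 ± 0.447, adjusted p = 0.0011, limma), at 184 to 253 TPM in control and 2.53 to 14.5 TPM in IUHG cells, and Kit (-1.82 ± 0.279, adjusted p = 0.0083, limma). Their part in the result was not tested.

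The change with stage was tested directly. The IUHG effect at E16.5F minus that at E13.5F was above 0 for all 9 members and called for 5, against 1.35% of all genes called higher. It was 3.32 ± 0.378 for Iho1 (adjusted p = 0.00012, limma), 3.15 ± 0.277 for Prdm9 (adjusted p = 1.2e-05, limma), 3.03 ± 0.349 for Mei1 (adjusted p = 0.00014, limma), 2.95 ± 0.317 for Zcwpw2 (adjusted p = 7.5e-05, limma) and 1.59 ± 0.18 for Zcwpw1 (adjusted p = 0.00012, limma). Ankrd31, at 1.45 ± 0.347, missed the threshold (adjusted p = 0.025, limma), and Spo11 (0.70), Rec114 (0.69) and Mei4 (0.69) lay lower. Called counts without single libraries ran from 5 to 7. Top6bl, Hormad1, Stra8 and Meiosin were called as well, by 2.54, 1.23, 2.31 and 3.74. In E13.5F IUHG cells the order of levels among the members differed from control, with Zcwpw1, Rec114, Mei4 and Spo11 leading and Mei1 last.

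Male cells showed no called change of a member. At E13.5M 0 of 8 tested members were called by limma, against 3.93% of all genes in either direction, with 5 at an unadjusted p below 0.05, and Mei1, at most 0.483 TPM, was below the filter. An unadjusted p below 0.05 (limma) was common there, with 6353 of all 14458 genes tested. Ankrd31 stood at 2.68, 4.10 and 3.47 TPM in control and 1.75, 1.41 and 1.27 TPM in IUHG cells, without overlap. Its difference of -0.82 ± 0.167 passed the p threshold but not the fold (adjusted p = 0.0047, limma). By adjusted p alone 9.97% of all genes were lower in E13.5M IUHG cells, and with a pseudocount of 0.1 Ankrd31 was called, at -1.15. Prdm9 went the other way, from 1.08, 1.5 and 1.02 TPM to 2.76, 2.2 and 2.14 TPM (0.62 ± 0.162, adjusted p = 0.016, limma). Zcwpw1, at 119, 114 and 120.0 TPM against 105, 104 and 101 TPM, differed by -0.19 (adjusted p = 0.016, limma), and Rec114, at 65.4, 69.2 and 71.5 TPM against 79.5, 84.9 and 79.1 TPM, by 0.24 (adjusted p = 0.012, limma). Of the 8 tested members, groups did not overlap for 3 that were higher (Prdm9, Mei4 and Rec114) and 3 that were lower (Zcwpw1, Zcwpw2 and Ankrd31), against 21.8% and 25.4% of all genes.

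Stra8 was called in E13.5M, from 8.73, 13.0 and 11.7 TPM to 175, 138 and 134 TPM, as were Meiosin (by 1.26) and Rec8, a meiotic cohesin (by 1.76), 3 of 5 genes of meiotic entry. Of 8 further break-formation genes and 13 tested genes of break processing 0 were called by limma, with 1 and 6 at an unadjusted p below 0.05. Germ cell markers were 8444 to 9050 TPM in control and 7533 to 7828 TPM in IUHG cells, and interstitial markers 11.8 to 13.6 and 2.64 to 3.11 TPM. What part these had was not tested.

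The IUHG effect in E13.5F minus that in E13.5M was below 0 for all 9 members and called for 5, against 2.00% of all genes called lower: Mei1 (-3.08 ± 0.334, adjusted p = 0.00018), Prdm9 (-2.88 ± 0.293, 9.9e-05), Iho1 (-2.66 ± 0.385, 0.0012), Zcwpw2 (-2.16 ± 0.351, 0.0027) and Zcwpw1 (-0.86 ± 0.171, adjusted p = 0.0083, limma). Rec114, at -1.0, had an adjusted p of 0.014 (limma). Without E13.5M control replicate 2 or 3 or E13.5M IUHG replicate 1 or 3, 3 members were called, and without E13.5F IUHG replicate 3 it was 6. Zcwpw2 was lost in those 4 fits only (adjusted p between 0.011 and 0.012, limma). Zcwpw1 was lost in 10 of the 12 fits without 1 library, all but those without E13.5F control replicate 2 or E13.5F IUHG replicate 3 (adjusted p up to 0.031, limma), and with no filter on low values (adjusted p = 0.019, limma). In E13.5M control cells, Prdm9, Zcwpw2, Mei1 and Iho1 had means of 1.20, 2.78, 0.0998 and 1.32 TPM. On the log2(TPM + 1) scale they could not fall from there by as much as in E13.5F. For these genes a response particular to females and a low starting level in males therefore cannot be told apart. This test and that of the stages share the E13.5F libraries.

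At E16.5M 0 of 9 members were called by limma (0.201% of all genes), with 2 at an unadjusted p below 0.05. Among all 20921 genes tested, 5005 had such a p. Spo11 stood at 26.5, 23.5 and 27.1 TPM in control and 32.5, 33.8 and 31.4 TPM in IUHG cells (0.33 ± 0.0921, adjusted p = 0.067, limma), and Iho1 at 5.02, 4.40 and 4.04 TPM and 6.06, 5.75 and 6.98 TPM (0.41 ± 0.151, adjusted p = 0.14, limma). Together with Prdm9 these were the 3 members without overlap that lay higher, against 17.8% of all genes. Zcwpw1 had a narrow interval, from -0.07 to 0.18, around 0.06.

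At E12.5 0 of 7 tested members were called by limma, against 0.247% of all genes, with 0 at an unadjusted p below 0.05, and all 7 overlapped. That unadjusted p was reached by 2162 of all 13756 genes tested. Zcwpw1 measured 100.2, 99.6 and 98.3 TPM in control and 96.9, 98.4 and 87.9 TPM in IUHG pools, Rec114 71.2, 85.6 and 75.8 TPM and 79.6, 96.5 and 90.9 TPM, and Mei4 14.2, 9.78 and 10.6 TPM and 9.97, 12.49 and 12.8 TPM. Their intervals ran from -0.28 to 0.13, from -0.06 to 0.45 and from -0.36 to 0.43, so a 2-fold change of these 3 lay outside them. Mei1, at most 0.145 TPM, and Ankrd31, at most 0.934 TPM, were below the filter. Y-linked transcripts summed to 194 to 212 TPM in control and 130 to 154 TPM in IUHG pools, whose sexes had not been separated.

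In whole E13.5F gonads, where germ cells are a minority, 0 of 9 members were called by limma, against 0.622% of all genes, with 4 at an unadjusted p below 0.05. Over all 18005 genes tested in gonads, 3574 had such a p. The study, with DESeq2 on counts and the same thresholds, named Prdm9 and Mei1 among the genes lower in IUHG gonads. That test was not repeated here, because counts were not given. Prdm9 stood at 13.8, 20.3 and 14.5 TPM in control and 11.6, 6.11 and 7.22 TPM in IUHG gonads, which do not overlap (-0.91 ± 0.222, adjusted p = 0.071, limma). Mei1 stood at 4.46, 7.06 and 5.59 TPM and 4.48, 1.89 and 1.24 TPM, where IUHG replicate 1 reached the lowest control (-1.01 ± 0.314, adjusted p = 0.13, limma).

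Zcwpw2 stood at 4.26, 5.21 and 3.41 TPM against 2.54, 2.45 and 2.24 TPM (-0.62 ± 0.168, adjusted p = 0.094, limma) and Iho1 at 9.59, 14.3 and 9.55 TPM against 9.01, 8.47 and 6.26 TPM (-0.44 ± 0.182, adjusted p = 0.23, limma). With Prdm9 these were the 3 members whose IUHG libraries all lay below control, against 11.3% of all genes. Zcwpw1 (96.7, 113 and 104 TPM against 113, 90.3 and 90.2 TPM), Rec114 (9.60, 14.4 and 12.4 TPM against 13.4, 12.1 and 10.2 TPM), Ankrd31 (1.94, 2.42 and 1.6 TPM against 2.01, 1.53 and 1.21 TPM), Mei4 (2.75, 4.07 and 2.74 TPM against 3.93, 3.93 and 3.27 TPM) and Spo11 (3.98, 5.74 and 6.16 TPM against 9.34, 6.72 and 6.14 TPM) overlapped. Rec114 changed sign with the library left out, and its neighbour Nptn stood at 121 to 131 TPM in the 6 gonad libraries.

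**Figure D4:**
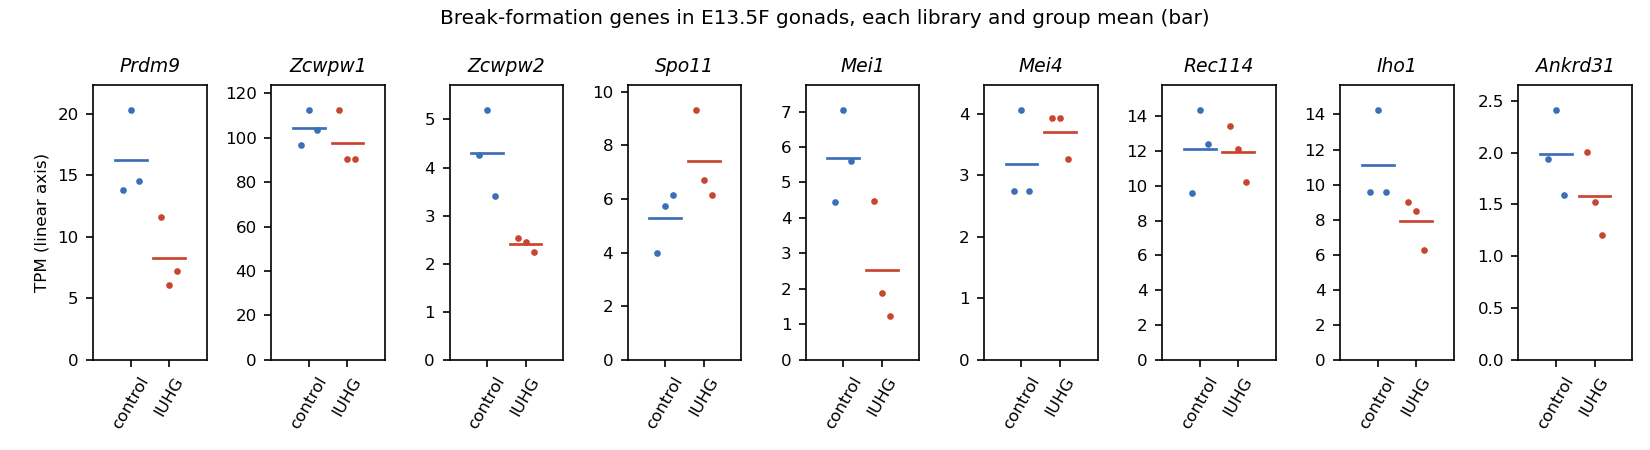
TPM (linear axes from 0, 1 scale per gene) of the 9 genes in E13.5F gonads, 1 point per library and a bar at the mean, control in blue and IUHG in red. The 3 IUHG points lie below all control points for Prdm9, Zcwpw2 and Iho1, against 11.3% of all genes tested.

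Without control replicate 1, the library with Y-linked and Amh transcripts, 0 members were called, with Prdm9 at -1.01 (adjusted p = 0.088, limma), Mei1 at -1.15, Zcwpw2 at -0.62 and Iho1 at -0.52. Without IUHG replicate 1, Prdm9 was called, at -1.15 (adjusted p = 0.049, limma). Summed germ cell markers were 520 to 584 TPM in control and 675 to 834 TPM in IUHG gonads, blood markers 6264 to 7973 and 4475 to 5291 TPM, and interstitial markers 996 to 1172 and 768 to 844 TPM. Their part was not tested. Of 8 further break-formation genes, 13 of break processing and 4 of meiotic entry, 0 were called by limma, with 2, 6 and 3 at an unadjusted p below 0.05. Top6bl stood at 5.25, 7.91 and 5.47 TPM against 3.77, 4.60 and 3.22 TPM (-0.56 ± 0.181, adjusted p = 0.14, limma). Stra8 and Hormad1 overlapped, both within 0.01 of 0.

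Across the 10 PGC groups, Prdm9, Zcwpw1, Zcwpw2, Spo11 and Iho1 had their highest level in E16.5F IUHG cells, with E16.5F control cells next and every library of the former above the latter. Mei1 and Ankrd31 had the same order, but their E16.5F groups overlapped. Rec114 was highest in E16.5M control cells, which overlapped E13.5F control cells, and Mei4 was highest in E13.5F control cells, apart from all other groups. At the low end, neighbouring groups mostly overlapped: for Zcwpw2, neighbours among the 7 groups from E13.5F IUHG downward all overlapped.

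Over the 30 PGC libraries, Pearson correlation with the mean of the 9 standardised profiles was 0.98 for Iho1, 0.97 for Mei1, 0.93 to 0.94 for Prdm9, Zcwpw1, Zcwpw2, Spo11 and Ankrd31, 0.71 for Rec114 and 0.11 for Mei4. Each member is itself part of this mean, which raises its correlation, whereas genes that are not members have no such part. Among 25133 other genes the 5 most like this mean were Spdya (0.99), Acss2 (0.99), H2-K1 (0.99), Lpin3 (0.99) and Sycp3 (0.98). Spdya codes for an activator of cyclin-dependent kinase at meiotic telomeres and Sycp3 for a lateral element of the synaptonemal complex. These libraries share stage, sex and pool within groups, so the correlations describe the 10 groups rather than independent samples.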

How the data were processed

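Expression of the 9 genes was read from 36 deposited gene tables, 1 per library, which hold coverage, FPKM and TPM per gene in the layout of StringTie. The authors prepared whole-gonad libraries with a bulk kit, and amplified full-length cDNA from sorted PGCs. Their methods give HISAT2 and StringTie for gonads, and STAR, featureCounts and DESeq2 for PGCs, while the submitters' processing notes name FastQC, Trim Galore, STAR, featureCounts and DESeq2 and the build mm39 for all samples. Positions in the PGC tables are of mm39, and those in the gonad tables matched GRCm38 rather than the mm9 of the methods, so the kinds of sample were tested only within themselves. The deposited TPM values sum to the same total in every library. The deposited FPKM values served as an alternative, and the ratio of the deposited coverage signal to FPKM gave the aligned bases per library. The tables hold no counts, so no count test was run.

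Rows of 1 gene identifier were summed, and of identifiers with the same symbol the one with the highest mean TPM was kept. TPM was transformed as log2(TPM + 1), genes with a mean of at least 1 TPM in a compared group were kept, and groups of 3 were compared with limma 3.58.1 in R 4.3.3 (empirical Bayes with an intensity trend), with two-sided p-values adjusted by the Benjamini-Hochberg method over all genes tested. Calls needed an adjusted p below 0.01 and an absolute log2 difference above 1 (PGCs) or an adjusted p below 0.05 and at least 1 (gonads), as in the study's thresholds, whose p for PGCs is not said to be adjusted. The 6 IUHG comparisons, 4 comparisons of control PGCs and 2 interactions were fitted, the interactions over 4 groups with an adjusted p below 0.01. Scripts were tested on simulated data. Each result was recomputed with a replicate block, without each library, from FPKM, with median-of-ratios scaling, without the filter, with 0.1 as pseudocount, with all 10 PGC groups in one fit, by unadjusted p, and by adjusted p without a fold threshold, the last chosen after seeing the data. The members, the gene lists and the rule for naming genes (all members; of each list the counts, the 2 largest called changes in each direction, and Top6bl, Hormad1, Stra8 and Meiosin; the 5 genes most like the members) were chosen with earlier results of these data known.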

Additional observations from a re-analysis of the deposited data

Results flagged for a closer look

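In 10 cases an effect of IUHG on a member differed between groups by the test of the difference itself (limma interaction, adjusted p below 0.01). Between stages, E16.5F minus E13.5F, the difference on the log2 scale was 3.15 for Prdm9, 1.59 for Zcwpw1, 2.95 for Zcwpw2, 3.03 for Mei1 and 3.32 for Iho1. Over all genes, 1.35% were called higher between stages. Between sexes, E13.5F minus E13.5M, it was -2.88 for Prdm9, -0.86 for Zcwpw1, -2.16 for Zcwpw2, -3.08 for Mei1 and -2.66 for Iho1. For this difference 2.00% of all genes were called lower. Leaving out 1 library lost the call of Zcwpw1 in 10 of 12 fits and that of Zcwpw2 in 4. Prdm9, Zcwpw2, Mei1 and Iho1 stood too low in E13.5M control cells to fall there as far as in E13.5F. Both tests use the 6 E13.5F libraries, so the same 5 genes appearing in each is not independent. In groups of 3, single outlying libraries were not tested for.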

How the results depend on the processing

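Over 1359 recomputed values of single genes, 1266 kept their direction and side of the threshold, 47 were no longer past it, 17 came past it, and 29, none of them past it before or after, changed sign. In gonads 1 member, Mei1, passed by unadjusted p, and counts without single libraries ran from 0 to 1. In E13.5F PGCs 0 passed with no filter on low values, where 37090 genes were tested in place of 16519, and leaving out single libraries gave 0 to 6. In E13.5M PGCs 1 passed with a pseudocount of 0.1 and 1 by adjusted p without a fold threshold, both Ankrd31, and in E16.5F PGCs 2 passed by that rule. The sex difference of the IUHG effect gave 3 to 6 without single libraries. Other counts stayed within 1.5 times, and the cause of the changes was not tested.

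Sign changes on the log2 scale were these. With FPKM and with median-of-ratios scaling, Mei4 at E12.5 moved from 0.03 to -0.012 and to -6.9e-05, Ankrd31 in E16.5F from 0.03 to -0.018 and to -0.0027, and Iho1 between control female stages from 0.09 to -0.051 and to -0.17. Without single libraries, the lowest and highest values were -0.16 and 0.11 for Rec114 in gonads, -0.32 and 0.42 for Prdm9 and -0.066 and 0.18 for Mei4 at E12.5, -0.022 and 0.11 for Ankrd31, -0.29 and 0.55 for Mei4 and -0.16 and 0.042 for Rec114 in E16.5F, -0.14 and 0.0097 for Ankrd31, -0.11 and 0.034 for Mei1 and -0.30 and 0.22 for Mei4 in E16.5M, and -0.018 and 0.18 for Iho1 between control female stages.

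Correlations of same-numbered deviations ran from -0.08 to 0.12, and every library correlated best with its own number only for E13.5M. With 3 libraries per group this check cannot exclude that the replicate numbers pair the libraries. A block for the number moved the genes called in E13.5F under IUHG from 13 higher and 72 lower to 73 and 144. With the number as a block, 4 members were called in E13.5F, 0 in the other 5 IUHG comparisons, 9, 7, 6 and 7 between control groups, 5 for the stage difference and 4 for the sex difference, where Zcwpw1 was lost (adjusted p = 0.011, limma).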
